A study of Mus musculus with 24 samples.

Results

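Translational efficiency (TE) was compared between Rps6 het and Rps6 WT forelimbs of mouse embryos with intact Trp53. The comparison was chosen by the sample labels and rests on 12 of the 24 libraries of the study. These are the ribosome-protected fragment (RPF) library and the RNA library of 3 pools of Rps6 het, Trp53 WT limbs and of 3 pools of Rps6 WT, Trp53 WT limbs, all of stage E10.5. The Rps6 het embryos carried the Prx1Cre transgene, 1 floxed and 1 wild-type Rps6 allele, and 2 wild-type Trp53 alleles (Prx1Cre;Rps6lox/+;Trp53+/+). The Rps6 WT embryos carried the same floxed allele without Cre (Rps6lox/+;Trp53+/+), so Cre itself was present in the Rps6 het limbs only, and the effects of Cre and of the Rps6 deletion cannot be told apart. The other 12 libraries came from the same Rps6 genotypes on a Trp53 null background (Prx1Cre;Rps6lox/+;Trp53-/- and Rps6lox/+;Trp53-/-) and served as a second comparison. By the labels' protocols, limbs from 2 embryos of like genotype went into each pool.

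Ribosome profiling digests the RNA that ribosomes do not cover and sequences the protected footprints, so that the footprints of a transcript report how many ribosomes are on it. TE sets the footprints against the RNA of the same transcript: a TE change is the footprint change less the RNA change, and it tells a change in ribosome load per RNA from a change in RNA amount. The product of Rps6 is part of the small ribosomal subunit, and a shortage of a ribosomal protein is known to activate p53, the transcription factor encoded by Trp53. Prx1Cre drives recombination in mesenchyme of the limb bud, so ectoderm, vessels, blood and incoming muscle precursors in a whole limb are not its main target.

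RNA libraries of Trp53 WT limbs held 19337252 to 26317954 counts and RPF libraries 7026056 to 16835045. The deposited rows were 21960 versioned mouse transcript IDs without gene names, and 0 of them matched the ID tables used here. Transcripts are therefore described by ID or as groups, and Rps6, Trp53 and the markers of limb cell types were not checked in these libraries. Whether a transcript shares reads with an overlapping or near-identical gene is equally unknown, and each single value is uncertain to that extent. In whole limbs, fewer cells of a type and less RNA per cell cannot be told apart. P-values measure the spread between libraries of different pools of embryos. In the main TE test the RPF and RNA library of a pool entered as separate samples, so their pairing was not used.

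TE differed between Rps6 het and Rps6 WT limbs for a small share of transcripts, in both directions. Of 14080 transcripts tested, edgeR's quasi-likelihood test called 165 at a Benjamini-Hochberg adjusted p-value under 0.05, which is 1.17% of those tested. TE was higher in Rps6 het for 70 (0.497%) and lower for 95 (0.675%). Over all transcripts tested the median TE change was −0.01 on the log2 scale, and before adjustment 1411 had p under 0.05. Scaling within each library kind keeps this median close to even, so TE changes are relative to the bulk of transcripts. A TE shift common to all transcripts would not be seen. In RNA alone the same pools gave 3580 calls (24.8% of 14411), and in footprints alone 3019 calls (24.9% of 12147). These shares are not on equal terms with that of TE. The median standard error (SE) was 0.131 for a TE change, 0.082 for an RNA change and 0.086 for a footprint change.

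The RPF and RNA library of a pool deviated together from their group means, and with the pool as a block in the model the edgeR test called 393 transcripts (2.79%), 119 higher (0.845%) and 274 lower (1.95%). All 165 transcripts were among them. The number of calls without the block depended on each pool. It was 108 without Rps6 WT, Trp53 WT replicate 1, 79 without replicate 2 and 58 without replicate 3 of that genotype. It was 76 without Rps6 het, Trp53 WT replicate 1, 177 without replicate 2 and 95 without replicate 3. In the fits without Rps6 WT replicates 2 and 3 and without Rps6 het replicate 3, calls of higher TE were no longer the fewer, at 42 against 37, 30 against 28 and 53 against 42.

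**Figure D1:**
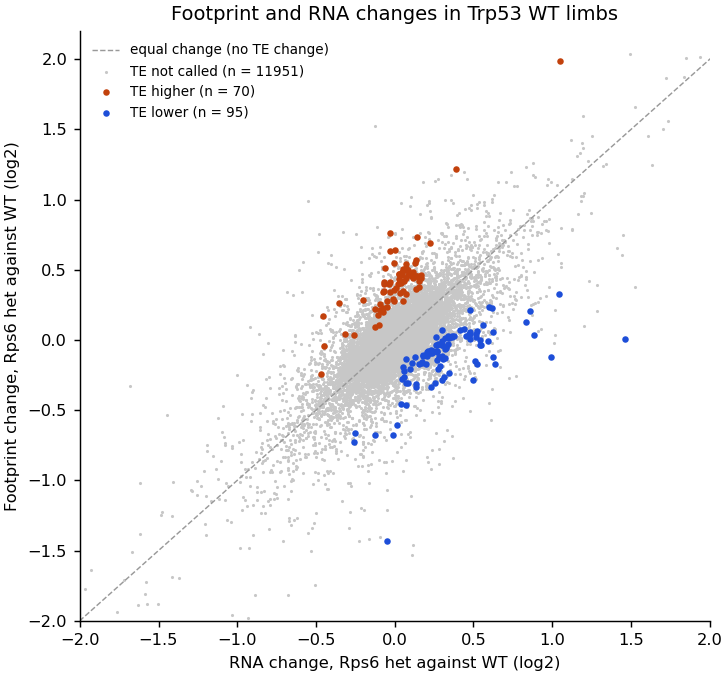
Each point is 1 of 12116 transcripts tested in both library kinds; the x axis is its RNA change and the y axis its footprint change in Rps6 het against Rps6 WT limbs with Trp53 WT (log2 fold change). The 70 transcripts higher in TE spread upward around an RNA change near 0, the 95 lower in TE lie mostly to the right of 0, and 24 transcripts, none of them called for TE, fall outside the axes.

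Transcripts with higher TE gained footprints at a nearly even RNA level. The median of the 70 TE changes was 0.37 on the log2 scale (range 0.20 to 0.94), with a median RNA change of 0.03 and a median footprint change of 0.41. Footprints were called higher for 64 of the 70, while footprints of all transcripts were called higher in 13.2%. RNA was called higher for 12 of them and lower for 7, against 13.1% and 11.7% of all transcripts tested in RNA. Most of these changes were small, since 10 of the 70 exceeded 0.5 and 0 exceeded 1 on the log2 scale. RNA and footprints enter the TE change itself, so these counts describe how each TE change was made up and are not a separate test.

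By the calls in the 2 library kinds, the largest group of the 70 consisted of 51 transcripts with footprints called higher and RNA not called. Their median changes were 0.01 in RNA and 0.41 in footprints. In another 12 both rose, by medians of 0.15 in RNA and 0.46 in footprints, so that TE was higher on top of a higher RNA level. In 5 transcripts RNA fell and footprints were not called, with medians of −0.31 and 0.04. The remaining 2 consisted of 1 with lower RNA and higher footprints and 1 with both lower.

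ENSMUST00000108430.9 had the smallest p-value among the transcripts with higher TE. Its footprint level was 281, 289 and 278 CPM (counts scaled by the TMM-adjusted library total) in the 3 Rps6 WT, Trp53 WT pools. In the 3 Rps6 het, Trp53 WT pools it was 498, 481 and 435 CPM. Its RNA level was 353, 346 and 359 CPM in Rps6 WT and 401, 383 and 385 CPM in Rps6 het. All 3 Rps6 het pools lay above all 3 Rps6 WT pools in both measures, by far more in footprints. The TE change was 0.59 ± 0.068 (SE) on the log2 scale (edgeR adjusted p = 9.52e-06), made of a footprint change of 0.74 and an RNA change of 0.14.

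ENSMUST00000001672.11 had the largest TE change of the 70 and rose in both library kinds. Its footprints were 16.3, 15.0 and 15.5 CPM in the Rps6 WT, Trp53 WT pools and 63.1, 57.9 and 64.0 CPM in the Rps6 het, Trp53 WT pools. Its RNA was 66.6, 64.7 and 62.7 CPM in Rps6 WT and 135, 129 and 137 CPM in Rps6 het. The groups were far apart in both measures, and footprints rose more than RNA. The log2 changes were 1.98 in footprints and 1.05 in RNA, and the TE change was 0.94 ± 0.108 (SE, edgeR adjusted p = 9.52e-06). The lowest footprint count behind these values was 135 reads.

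Transcripts with lower TE mostly had more RNA at a nearly even footprint level. The median of the 95 TE changes was −0.39 on the log2 scale (range −1.46 to −0.21), with a median RNA change of 0.30 and a median footprint change of −0.09. RNA was called higher for 73 of the 95 and lower for 2, where 13.1% and 11.7% of all transcripts tested in RNA were. Footprints were called lower for 36 and higher for 5, where 11.7% and 13.2% of all tested in footprints were. Of the 95, 27 fell by more than 0.5 and 3 by more than 1 on the log2 scale. RNA and footprints enter the TE change, so these counts too are a description of how it was made up.

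The largest group of the 95 had 54 transcripts with RNA called higher and footprints not called, with median changes of 0.34 and −0.03. In 20 transcripts footprints fell and RNA was not called, with medians of −0.29 and 0.07. In 14 RNA rose and footprints fell, and these had the lowest median TE change of the groups, −0.53, made of medians of 0.28 in RNA and −0.20 in footprints. Both rose in 5 transcripts, RNA by a median of 0.62 and footprints by 0.23. Both fell in 2, footprints by a median of 0.69 and RNA by 0.25.

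ENSMUST00000102926.4 had the largest TE change of all called transcripts. Its RNA was 66.8, 63.3 and 63.2 CPM in the Rps6 WT, Trp53 WT pools and 178, 162 and 194 CPM in the Rps6 het, Trp53 WT pools. Its footprints were 467, 481 and 458 CPM in Rps6 WT and 463, 464 and 482 CPM in Rps6 het. The RNA levels were well apart and the footprint levels overlapped. The TE change was −1.46 ± 0.106 (SE) on the log2 scale (edgeR adjusted p = 3.73e-09), with an RNA change of 1.46 (edgeR adjusted p = 3.3e-08) and a footprint change of 0.00 (edgeR adjusted p = 0.953).

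ENSMUST00000067081.9 had the same form on a smaller scale. Its RNA was 49.1, 47.5 and 45.3 CPM in the Rps6 WT, Trp53 WT pools and 71.5, 73.9 and 73.5 CPM in the Rps6 het, Trp53 WT pools. Its footprints were 127, 130 and 129 CPM in Rps6 WT and 141, 129 and 131 CPM in Rps6 het. RNA separated the groups, and footprints did not beyond the spread of the pools. The TE change was −0.57 ± 0.060 (SE) on the log2 scale (edgeR adjusted p = 4.96e-06), with changes of 0.63 in RNA and 0.05 in footprints.

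**Figure D2:**
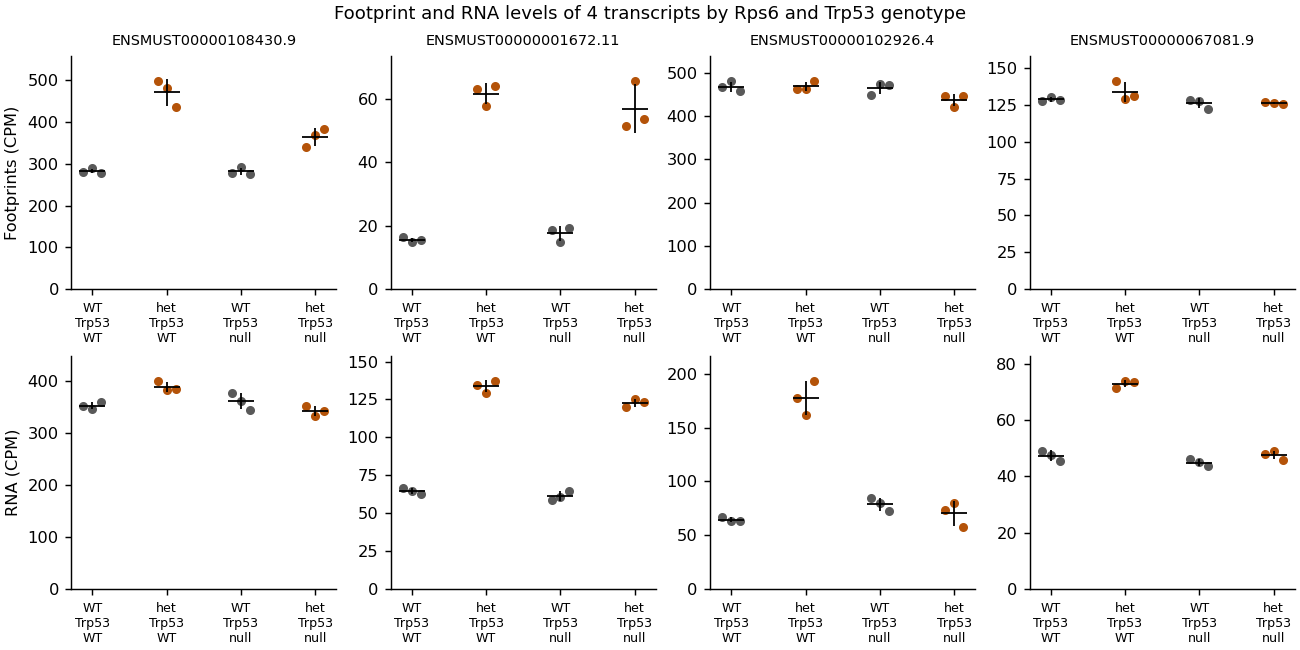
Footprint level (upper panels) and RNA level (lower panels), in CPM on linear axes from 0, of the 4 transcripts described singly, in each of the 12 pools (points; bars are the mean ± SD of 3 pools per genotype). ENSMUST00000108430.9 and ENSMUST00000001672.11 gained footprints in Rps6 het pools of both Trp53 backgrounds, while RNA of ENSMUST00000102926.4 and ENSMUST00000067081.9 was high in the Rps6 het, Trp53 WT pools alone.

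The 2 directions peaked in different parts of the range of transcripts, though both were more frequent among the more abundant RNAs. To place them with libraries outside the comparison, 10499 transcripts with a mean count of at least 30 in both library kinds were ranked in deciles in the Rps6 WT, Trp53 null pools, by RNA level and by the ratio of footprint CPM to RNA CPM. That ratio is not corrected for length, as footprints were counted over the coding sequence and RNA over the whole transcript, so its rank mixes ribosome load with the share of a transcript that is coding. CPM is likewise a depth of reads and not a level per length.

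Transcripts with higher TE were for the most part abundant RNAs. In the decile with the highest RNA CPM lay 54 of the 70, and 16 lay in the other 9 deciles. Their median RNA level in the Rps6 WT, Trp53 WT pools was 554 CPM. It was 39.9 CPM over the 10499 ranked transcripts and 23.1 CPM over all transcripts tested. Precision moved with this rank: the median SE of the TE change was 0.066 in the top decile and 0.110 in the other 9, and its part in the count was not tested. With the pool as a block, 78 of the 119 with higher TE lay in the top decile. The median TE change of all transcripts in the top decile was −0.01. Calls of lower TE were also more frequent at high RNA levels, but without a peak in the top decile. Of the 95, 17 lay in decile 10, 20 in decile 9 and 21 in decile 8, and 0 to 8 in each lower decile. The median RNA level of the 95 was 90.7 CPM.

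Transcripts with lower TE were concentrated among those with a high footprint-to-RNA ratio, not corrected for length, in the Rps6 WT, Trp53 null pools. In the decile with the highest footprint-to-RNA ratio lay 51 of the 95, in the next decile 16, and in each of the other 8 deciles 1 to 7, while 1 of the 95 was below the minimum count. The highest decile held 0 of the 70 transcripts with higher TE. Precision was alike here, with a median SE of 0.105 both in the highest decile and over the other 9. With the pool as a block, 131 of the 274 transcripts with lower TE lay in the highest decile and 3 of the 119 with higher TE. The whole decile was shifted as well, with a median TE change of −0.10 over its 1050 transcripts, and of −0.07 over the 681 of them whose RNA was not called, against 0.00 over the other 9 deciles.

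**Figure D3:**
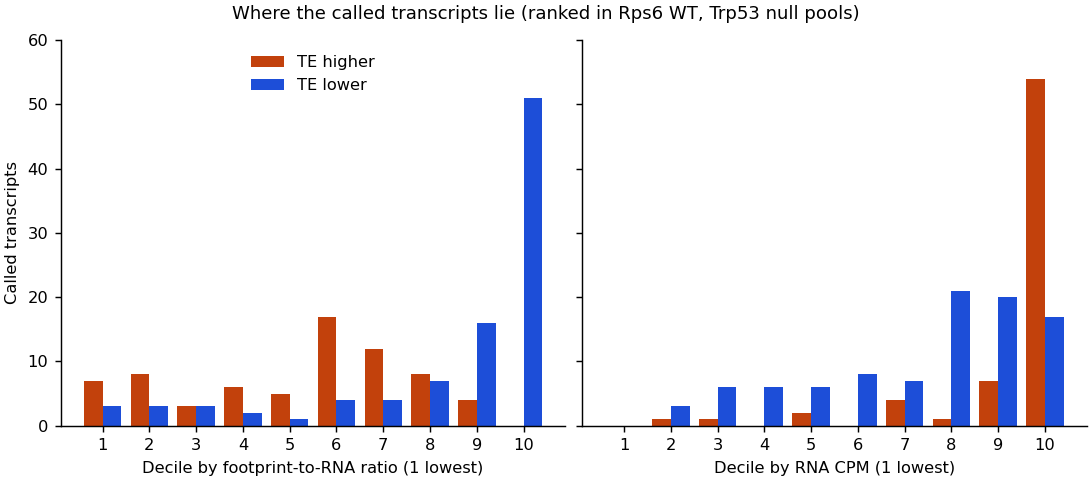
Number of transcripts called higher (orange) and lower (blue) in TE in Rps6 het, Trp53 WT limbs, by decile of the footprint-to-RNA ratio (left) and of RNA CPM (right), both ranked in the Rps6 WT, Trp53 null pools over 10499 transcripts. Lower TE peaks in the highest ratio decile (51 transcripts) and higher TE in the highest RNA decile (54 transcripts).

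How footprints followed RNA also differed by this rank. Among the 316 transcripts of the highest ratio decile with RNA called higher, the median RNA change was 0.34 and the median footprint change 0.14 on the log2 scale. Among the 1294 such transcripts of the other 9 deciles the medians were 0.27 and 0.23. The TE change was negative for 89.6% of the former and 66.5% of the latter, and 46 and 27 of them were called lower in TE. Because RNA calls chose these transcripts, an RNA change above the footprint change is favoured by the choice in every decile. How strongly it is favoured may differ between deciles. The median RNA count over all transcripts was 677 in the highest decile and 865 in the other 9. The part of this choice in the values of the deciles side by side was not tested.

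Transcripts with RNA called lower also had a lower TE change in the highest ratio decile than in the others. Over its 53 such transcripts the median changes were −0.36 in RNA and −0.35 in footprints, and over the 1372 of the other 9 deciles −0.27 and −0.23. The median TE change of these transcripts was −0.03 in the highest decile and 0.05 in the other 9, where that of transcripts with RNA called higher was −0.20 and −0.05. The difference between these groups was not tested, and transcripts are not replicates.

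**Figure D4:**
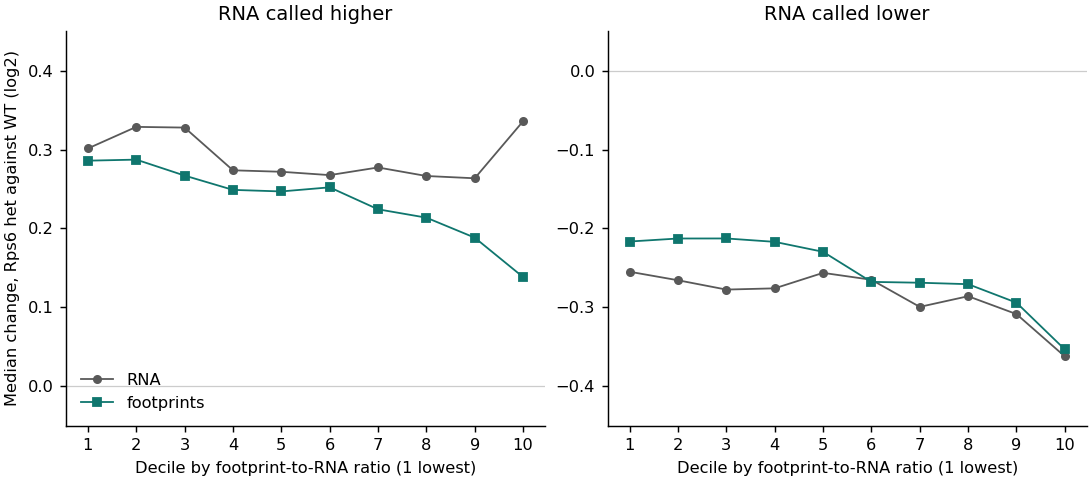
Median RNA change (grey circles) and median footprint change (green squares) in Rps6 het against Rps6 WT limbs with Trp53 WT (log2), by decile of the footprint-to-RNA ratio, for transcripts with RNA called higher (left) and lower (right). On the left the lines part toward the highest decile, where they stand at 0.34 and 0.14, and on the right the footprint line lies above the RNA line in the lowest decile and comes to −0.35 against −0.36 in the highest.

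Higher TE was for the most part shared with Trp53 null limbs. Through the low-count filter and the shared estimate of spread these libraries had a part in which transcripts were called, but their TE change did not enter the calls. In them the TE change of Rps6 het against Rps6 WT was positive for 66 and negative for 4, with a median of 0.26, while over all transcripts tested the median was 0.00 and 51.3% were positive. On its own the Trp53 null comparison called 28 transcripts (0.199%), 25 higher (0.178%) and 3 lower (0.0213%), and 23 of those 25 were among the 70. With the pool as a block it called 50 higher (0.355%), 40 of them among the 70. As in Trp53 WT, the change lay in the footprints, with medians of −0.07 in RNA and 0.20 in footprints. The 5 transcripts with RNA called lower and footprints not called in Trp53 WT had a median TE change of 0.36 in Trp53 WT and 0.02 in Trp53 null. In Trp53 null the change was positive for 4 of the 5 and negative for 1. A difference between the backgrounds was called for 0 of them, with or without the pool as a block. Footprints were called higher in Trp53 null for 37 of the 70 (0.617% of all tested), and RNA for 1 (0.0208%).

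The direction was the same with the backgrounds kept fully apart, a comparison added after the data were seen. The 12 Trp53 WT libraries alone called 74 transcripts higher in TE, 66 of them among the 70. In a fit of the 12 Trp53 null libraries alone, 70 of these 74 had a positive TE change, with a median of 0.27, against 50.5% of all transcripts tested in both. This smaller edgeR fit called 0 of the 74 and 0 transcripts in all in Trp53 null. Its unadjusted p was under 0.05 for 57 of the 74 and for 621 of the 13545 tested in both. DESeq2 called 36 of the 74 and 47 of the 13545. The 12 Trp53 WT libraries alone called 137 transcripts lower in TE, and 67 of these had a negative TE change in the Trp53 null libraries alone.

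These calls depended on single pools, while the direction did not. Without Rps6 WT, Trp53 null replicates 1, 2 or 3 the number of the 70 called in Trp53 null was 1, 0 and 16. Over all transcripts tested it was 1, 0 and 20. Without Rps6 het, Trp53 null replicates 1, 2 or 3 it was 11, 14 and 1 of the 70, and 13, 19 and 1 over all tested. In the same 6 fits the TE change was positive for 63 to 67 of the 70, and the median was 0.24 to 0.28. A difference between the backgrounds was called for 0 of the 70 by the edgeR test of the difference itself, and for 1, higher in Trp53 WT, with the pool as a block (0.00710%). The TE change was larger in Trp53 WT for 65 of the 70, by a median of 0.14 over the 70, and for 6654 of all 14080 transcripts. As Trp53 WT pools chose the 70, a larger change there is favoured by the choice. The lack of calls does not show that the TE changes were equal. ENSMUST00000108430.9 and ENSMUST00000001672.11 had TE changes of 0.45 and 0.69 in Trp53 null (both with an edgeR adjusted p = 0.00511), and their differences between backgrounds were 0.15 and 0.25 (edgeR adjusted p = 0.878 and 0.875). RNA of ENSMUST00000001672.11 rose in Trp53 null as well, by 1.00, and its footprints by 1.69.

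Lower TE was for the most part not seen in Trp53 null limbs. Of the 95 transcripts the TE change there was negative for 56 and positive for 39, with a median of −0.02, where 48.8% of all transcripts tested were negative, and 2 of the 95 were called lower. The median RNA change of the 95 was −0.01 and the median footprint change −0.02, and RNA was called higher for 0 of them. One pool stood apart here. The median deviation of the 95 from the Rps6 WT, Trp53 null pools was −0.05 and −0.06 in Rps6 het, Trp53 null replicates 1 and 2 and 0.10 in replicate 3. Without replicate 3 the change was negative for 75 of the 95, with a median of −0.06 and 0 called, so the share of negative changes depends on this pool. Without each other Trp53 null pool in turn it was negative for 43 to 56 of the 95.

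In the pools of Trp53 WT both groups of transcripts behaved alike. The median deviation of the 70 from the mean of the Rps6 WT, Trp53 WT pools was 0.40, 0.38 and 0.33 in the 3 Rps6 het, Trp53 WT pools, and that of the 95 was −0.39, −0.38 and −0.42. The Rps6 het pools of Trp53 null were at 0.25, 0.29 and 0.26 for the 70. All 70 and all 95 had Rps6 het and Rps6 WT pools that did not overlap in the log2 ratio, as had 8.30% (higher) and 10.8% (lower) of all transcripts tested. Pools of Trp53 WT chose these transcripts, and their values are given as a description.

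**Figure D5:**
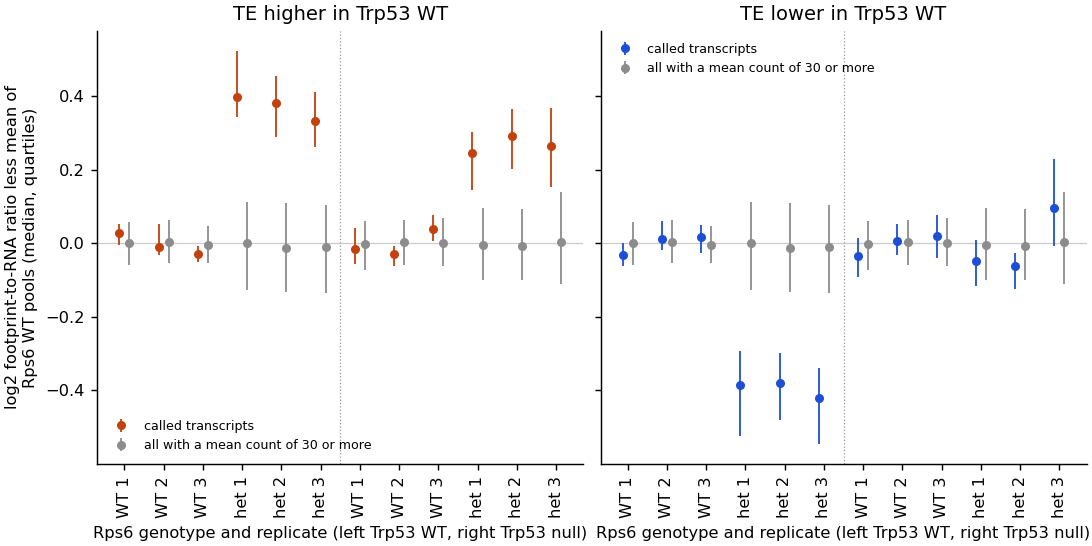
Deviation of the log2 footprint-to-RNA ratio from the mean of the Rps6 WT pools of the same Trp53 background, as the median (point) and quartiles (line) over the 70 transcripts higher in TE (left), the 95 lower in TE (right) and all 10499 with a mean count of 30 or more (grey), in each of the 12 pools. The 70 lie above 0 in the Rps6 het pools of both backgrounds, and the 95 lie far below 0 in Rps6 het, Trp53 WT pools alone, with Rps6 het, Trp53 null replicate 3 at 0.10.

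The difference between the backgrounds was called for 10 transcripts (0.0710%) by edgeR, all 10 with a more negative TE change in Trp53 WT and all 10 among the 95. An unadjusted p-value under 0.05 was found for 890. With the pool as a block 44 were called (0.312%), 43 more negative in Trp53 WT, and 31 of the 95 were among them. The number without the block fell to 3 without Rps6 WT, Trp53 WT replicate 3, without Rps6 het, Trp53 WT replicate 3, and without Rps6 WT, Trp53 null replicate 2 or 3. It was 4 without Rps6 WT, Trp53 WT replicate 2, 6 without Rps6 WT, Trp53 null replicate 1 and 16 without Rps6 het, Trp53 null replicate 2. For the 10 transcripts the TE change was −1.46 to −0.46 in Trp53 WT and −0.08 to 0.17 in Trp53 null. RNA of all 10 rose in Trp53 WT, by 0.50 to 1.46, and stood between −0.17 and 0.09 in Trp53 null. Their footprints changed by −0.28 to 0.33 in Trp53 WT, with 3 called. The rest of the 95 were not called by this test, which does not show that their TE changes were equal.

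ENSMUST00000102926.4 showed the largest of these differences. In Trp53 null its RNA was 84.4, 79.5 and 72.6 CPM in Rps6 WT and 73.6, 80.2 and 57.6 CPM in Rps6 het, and its TE change was 0.09. The difference of the TE changes, Trp53 WT less Trp53 null, was −1.55 on the log2 scale (edgeR adjusted p = 2.27e-06). For ENSMUST00000067081.9 RNA in Trp53 null was 46.1, 45.1 and 43.5 CPM in Rps6 WT and 47.9, 49.0 and 45.9 CPM in Rps6 het. Its difference between backgrounds was −0.50 (edgeR adjusted p = 0.0140). In both, the RNA rise of the Trp53 WT limbs was not seen in Trp53 null.

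In RNA and footprints the 12 transcripts of each direction with the smallest p-values had a make-up like that of their groups. Among the 12 with higher TE the TE change was 0.37 to 0.94 in Trp53 WT and 0.24 to 0.69 in Trp53 null. Footprints were called for 11 of these 12 and RNA for 4, and their median RNA level in Rps6 WT, Trp53 WT was 813 CPM. Among the 12 with lower TE the change was −1.46 to −0.42 in Trp53 WT and −0.48 to 0.17 in Trp53 null, with RNA called for 11 and footprints for 4. Of these 12, 10 differed between the backgrounds by the edgeR test, against 10 of all 95, and 1 was called lower in Trp53 null too. The test of the difference contains the Trp53 WT change that ranked these 12, so such calls are favoured among them.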

How the data were processed

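The authors deposited raw read counts per transcript, in whole numbers, in 1 table, with RPF counts over coding sequences and RNA counts over whole transcripts, by the table's name. The submitters' processing notes name Bowtie2, UMI-tools, GRCm38 and mm10 without versions; the annotation, the counting tool, read filters and whether duplicates were collapsed are not given in the sources used here. Where reads were not collapsed, the counts are not independent molecules.

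TE was tested with edgeR 4.0.16 (R 4.3.3) by a quasi-likelihood F test over all 24 libraries with 8 group means, so the Trp53 null libraries share the estimate of spread. filterByExpr used a minimum count of 10 and a minimum total of 15, and TMM scaling was done within each library kind. This kept 14080 transcripts, 962 of them without a footprint in any RPF library and 2246 with a mean RPF count under 10. SEs were derived from the F statistic, and pool ratios used an added count of 0.5. RPF and RNA were also fitted apart. Alternatives were blocks, DESeq2 1.42.0, limma-voom (limma 3.58.1), filters and omitted pools.

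Deviations of a pool's RPF and RNA library correlated at 0.135 to 0.569 across 10499 transcripts in the 6 Trp53 WT pools, each highest with its own number; the labels' protocols describe both as parts of 1 lysate, so the pool pairs them. Replicate libraries of Trp53 WT differed by more than sampling noise, with a chi-square per degree of freedom of 2.12 to 7.54 over 12 pairs.

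The groups of transcripts and all rules were chosen with earlier results of these data known. The rule for named transcripts took the 12 smallest p-values in each direction among calls whose pools did not overlap, of which 2 IDs in each direction are printed. Planned gene lists, cell type markers and sequences need gene names and were not run. The test was checked on simulated data in which all libraries were drawn independently, so the pairing of libraries by pool was not part of this check.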

Additional observations from a re-analysis of the deposited data

Results flagged for a closer look

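The TE change of Rps6 het against Rps6 WT differed between Trp53 WT and Trp53 null limbs for 10 transcripts by the edgeR test of the difference. The values of the 2 with the smallest p-value of their TE change were −1.55 for ENSMUST00000102926.4 and −0.50 for ENSMUST00000067081.9 on the log2 scale (the Trp53 WT change minus the Trp53 null change).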

How the results depend on the processing

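The TE calls in Trp53 WT numbered 165 and were 393 with the pool as a replicate block, 263 with the replicate number as a block, 282 (81 higher, 201 lower) without a filter on low counts and 257 by the DESeq2 Wald test. Leaving out 1 pool gave 58 to 245 calls over 12 fits, the highest without Rps6 het, Trp53 null replicate 3, which enters this comparison only through the shared spread. DESeq2 size factors, limma-voom, a filter passed in both library kinds and the 12 Trp53 WT libraries alone stayed within 1.5 times. The 10 calls of a difference between backgrounds became 44 with the pool block, 43 without a filter, 17 by DESeq2 and 3 without both Rps6 het, Trp53 null replicate 3 and Rps6 WT, Trp53 null replicate 2, a choice made after the data were seen. Leaving out 1 pool gave 3 to 16: without Rps6 WT, Trp53 WT replicates 2 and 3 it gave 4 and 3, without Rps6 het, Trp53 WT replicate 3 it gave 3, without Rps6 WT, Trp53 null replicates 1, 2 and 3 it gave 6, 3 and 3, and without Rps6 het, Trp53 null replicate 2 it gave 16. RNA calls were 2211 to 3418 over 6 such fits, the 2 lowest without Rps6 WT, Trp53 WT replicate 3 (2211) and Rps6 het, Trp53 WT replicate 1 (2292), and RPF calls 2183 to 2735. The cause of these shifts was not tested. The 4 transcripts given by ID kept direction and call in all 14 alternatives run for each, with edgeR, DESeq2 or limma adjusted p-values of at most 0.000325. The median SE of a TE change without the pool block was 0.131 on the log2 scale. It covers the spread between libraries of different pools as well as counting error, and it limits the size of change that could be called.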

Other observations

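The pool block added 49 calls of higher and 179 of lower TE in Trp53 WT, and these were smaller changes in less abundant RNAs. The added transcripts with higher TE had a median change of 0.26 on the log2 scale and a median RNA level of 184 CPM in Rps6 WT, Trp53 WT. RNA was called lower and footprints not called for 20 of the 49, against 5 of the 70, with median changes of −0.22 and 0.07. In Trp53 null limbs the TE change of 46 of the 49 was positive in the fit without the block, with a median of 0.13. Over the 20 with RNA called lower and footprints not called, the median was 0.07, against 0.25 in Trp53 WT.

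The 179 added transcripts with lower TE had a median change of −0.34 and a median RNA level of 64.9 CPM. RNA was called higher and footprints not called for 69 of them, footprints were called lower and RNA not called for 65, and neither was called for 25. In Trp53 null limbs their TE change was negative for 80 and positive for 99. The median deviation of the 179 was −0.08 and −0.07 in Rps6 het, Trp53 null replicates 1 and 2 and 0.17 in replicate 3, the same pool that stood apart for the 95.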
